A study of Mus musculus with 15 samples.

Results

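Transcripts of 9 genes that serve the surface and the effector functions of mature neutrophils were followed in mouse lungs from 3 groups, CTR, SCR and PT. They are Il1r2, Trem1, Trem3, Fpr1, Fpr2, Mmp8, Mmp9, Retnlg and Hdc. They were chosen by gene name as 9 of the 46603 genes in the counts table, and all 9 were among the 15870 genes that passed the filter for low counts and were tested. All mice were athymic Swiss nude mice (Foxn1nu/nu), male or female, of 8 to 12 weeks, which lack a working thymus. The control group (CTR, 4 lungs) carries no treatment in the labels, and the methods of the study speak of vehicle in one place and of untreated animals in another. SCR-treated mice (SCR, 6 lungs) received a daily intraperitoneal injection of the secretome of 143B cells for a week, that is, of what this human osteosarcoma cell line releases into its medium. PT-bearing mice (PT, 5 lungs) carried a subcutaneous primary tumour of luciferase-labelled 143B Luc+ cells in the lower flank, so the tumour is human, of 1 cell line, and grows in a host without mature T cells of its own. The comparisons ask how the lung differs before metastasis with secreted factors alone or with a growing tumour.

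Neutrophils are made in the bone marrow, circulate briefly and enter inflamed tissue. They find their way by surface receptors for bacterial formyl peptides and inflammatory signals, and they release proteases stored in granules. The lung holds a large pool of them in its capillaries even at rest. In a bulk lung library, more or fewer neutrophils and more or less RNA per neutrophil cannot be told apart, and the 9 genes are also used by other cells: Fpr1, Fpr2, Trem1 and Mmp9 by monocytes and macrophages, and Hdc by mast cells and basophils.

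The deposited libraries held 14167644 to 22109856 counts in CTR, 13078095 to 18621680 in SCR and 12767431 to 17386086 in PT. Values below are in CPM, reads of a gene scaled to a common library total with TMM factors, with the mean ± SD over 4 CTR, 6 SCR and 5 PT lungs. Nothing in the labels says that the lungs of a group came from separate cages or batches, and p-values measure the spread between these lungs. The lung marker Sftpc, surfactant protein C, had mean levels of 16620, 17900 and 18200 CPM in the 3 groups. Other lung markers were less even: the club cell gene Scgb1a1 was at 25170 CPM in CTR and 50600 CPM in SCR (unadjusted p = 0.0146), and the endothelial genes Cdh5 and Pecam1 had log2 fold changes of -0.76 (adjusted p = 0.0783) and -0.40 (unadjusted p = 0.00834) in SCR against CTR (edgeR). By Xist and Y-linked transcripts, 4 lungs were female (SCR 4, SCR 6, PT 3 and PT 5), and all CTR lungs and the rest were male. SCR lungs 1 to 3 stood apart: 12 glucocorticoid response genes had a mean log2 CPM of 6.46 to 6.67, against 5.03 to 5.90 in the other 12 lungs, and 7 mesothelial markers one of 0.54 to 3.49, against 3.72 to 5.30. The values of PT against SCR and SCR against CTR that move most without these lungs are given below. Some p-values of PT against CTR that move are given as well.

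In the GRCm38 assembly, the 9 genes lie on 5 chromosomes, with 4 of them in 2 pairs of neighbours on chromosome 17. Trem1 (chr17:48232768-48246924) and Trem3 (chr17:48247777-48258841) are on the plus strand with 852 bases between them. Fpr1 (chr17:17876471-17883940, minus strand) and Fpr2 (chr17:17887824-17893952, plus strand) are separated by 3883 bases and point away from each other. The annotation places Fpr3 across Fpr2 and AC241601.2 across Trem1, and the strand setting of the counting is not stated, so reads in shared stretches are uncertain. Fpr3 itself was listed with 0 counts in all 15 lungs. Il1r2 (chr1:40074079-40125231, 11 exons) overlaps Gm16894 and Gm37347, and no overlap was found for Mmp8 (chromosome 9), Mmp9 and Hdc (chromosome 2) and Retnlg (chromosome 16).

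Promoter windows, 250 bases before to 50 bases after the gene start annotated there, were found in RefSeq (GRCm38.p6) for 7 of the 9 genes. Mmp9 and Trem3 are named only. The windows were searched on both strands for the ETS core GAGGAA, the letters bound by PU.1 and its relatives, and for TTGCNNAA, a C/EBP motif. Both are families of factors that myeloid cells depend on, and the motifs do not overlap in these windows. Of 32851 promoters of the same length, 28.28% hold the ETS core and 10.8% the C/EBP motif. Among the 7 windows, Mmp8, Trem1 and Fpr2 hold the ETS core, and Mmp8 and Retnlg hold the C/EBP motif. Neither motif was found in the windows of Il1r2, Fpr1 and Hdc. In Mmp8 the ETS core starts 219 bases and the C/EBP motif 19 bases before the gene start. The 4 windows below are shown because they belong to the gene with the largest difference between PT and CTR (Il1r2) and to 3 genes whose levels followed the others most closely over the lungs (Trem1, Mmp8, Retnlg). Capitals mark a motif, read on either strand.
Il1r2 (chr1:40085843-40086142, plus strand): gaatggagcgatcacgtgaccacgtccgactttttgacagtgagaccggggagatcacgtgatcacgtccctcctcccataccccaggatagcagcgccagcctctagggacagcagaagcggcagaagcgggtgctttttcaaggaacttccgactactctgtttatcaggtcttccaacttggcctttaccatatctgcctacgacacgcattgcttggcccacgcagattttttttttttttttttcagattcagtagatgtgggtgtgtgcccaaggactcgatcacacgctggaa
Trem1 (chr17:48232489-48232788, plus strand): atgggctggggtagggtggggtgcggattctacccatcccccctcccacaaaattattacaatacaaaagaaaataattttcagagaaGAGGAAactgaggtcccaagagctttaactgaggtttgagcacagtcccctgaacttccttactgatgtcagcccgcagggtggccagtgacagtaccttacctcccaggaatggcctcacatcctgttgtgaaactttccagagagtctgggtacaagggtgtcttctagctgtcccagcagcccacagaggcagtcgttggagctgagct
Mmp8 (chr9:7558179-7558478, plus strand): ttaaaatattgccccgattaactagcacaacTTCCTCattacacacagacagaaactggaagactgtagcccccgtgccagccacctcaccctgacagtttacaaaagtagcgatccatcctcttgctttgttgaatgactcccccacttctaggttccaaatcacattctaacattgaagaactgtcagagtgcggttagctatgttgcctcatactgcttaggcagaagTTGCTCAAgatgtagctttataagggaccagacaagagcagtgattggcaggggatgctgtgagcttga
Retnlg (chr16:48872358-48872657, plus strand): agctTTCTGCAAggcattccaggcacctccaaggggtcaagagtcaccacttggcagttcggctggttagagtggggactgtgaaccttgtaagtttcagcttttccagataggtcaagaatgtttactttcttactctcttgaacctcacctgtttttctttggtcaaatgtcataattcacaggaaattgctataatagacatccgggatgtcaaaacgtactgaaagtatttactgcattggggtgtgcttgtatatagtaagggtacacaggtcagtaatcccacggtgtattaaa
The RefSeq start behind the Il1r2 window lies 12014 bases inside the deposited gene and that of Hdc 621 bases inside, so these windows describe another start than the first base of the deposited gene. The starts of the other 5 windows are within 29 bases of it. A motif is a match of letters and says nothing of binding in these lungs.

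Across the 9 genes, mean levels were highest in PT, by little for Fpr1 and Hdc, and those of SCR lay on both sides of CTR. None of the 9 passed edgeR's test after Benjamini-Hochberg adjustment over all genes tested in any comparison. In PT against CTR, all 9 log2 fold changes were above 0, with a median of 0.62, where 51.6% of all genes tested were above 0 and the median of all genes was 0.01. At an unadjusted p under 0.05, 2 of 9 genes were higher in PT than CTR (Il1r2, Fpr2), against 2.93% of all genes tested. After adjustment no gene of the table was called (0% of all genes), with 2 of the 9 at an unadjusted p under 0.05. DESeq2 called 0 of the 9, against 0.126% of all genes. Limma on the FPKM called 0 of the 9, against 3 of 16137 genes with a pseudocount of 1 and 2 with 0.1. In PT against SCR, all 9 were again above 0, with a median of 0.88, against 48.2% of all genes. At an unadjusted p under 0.05, 5 of 9 were higher in PT than SCR (Il1r2, Mmp8, Mmp9, Trem1, Hdc), against 6.19% of all genes tested. In edgeR 0 of 9 passed adjustment, against 0.0378% of all genes. In limma 0 did, against 2 of 16137 genes with a pseudocount of 1 and 7 with 0.1. DESeq2 called 2 of the 9 there (Il1r2, Trem1), against 1.46% of all genes, and edgeR's likelihood ratio test called the same 2, against 183 of 15870 genes. In SCR against CTR, 2 of 9 were above 0, against 51.2% of all genes, with a median of -0.17. There, 2 of 9 were lower at an unadjusted p under 0.05 (Trem1, Hdc), against 10.2% of all genes. After adjustment 0 of 9 passed in edgeR, DESeq2 or limma. The shares of all genes were 0.113% in edgeR and 3.78% in DESeq2, and limma called 2 of 16137 genes with either pseudocount. The comparisons share lungs, so PT against CTR and PT against SCR are not independent of each other.

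**Figure D1:**
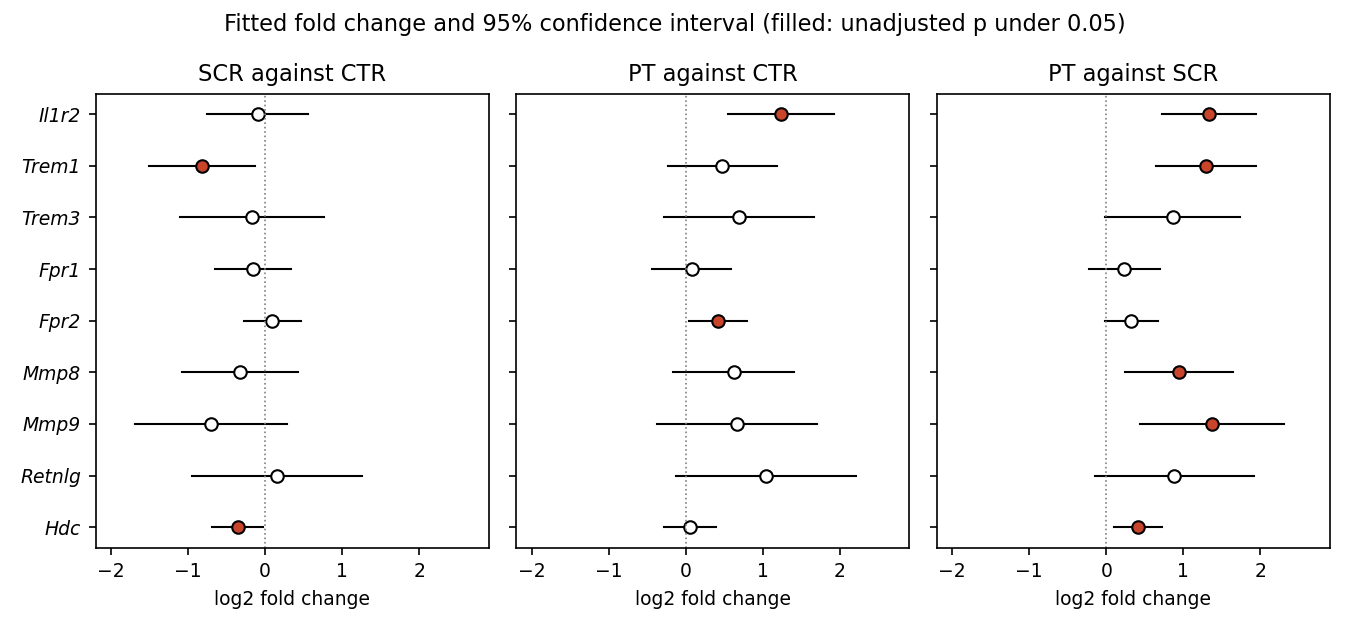
Fitted log2 fold change (x axis) of each of the 9 genes (rows) in SCR against CTR, PT against CTR and PT against SCR, with 95% confidence intervals as lines. Filled points have an unadjusted p under 0.05, and the points in the PT panels all lie above 0, from 0.06 to 1.24 against CTR and from 0.23 to 1.37 against SCR.

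The study counted genes at an unadjusted p under 0.05 whose log2 fold change was also beyond 1 in either direction. By this threshold, 1 of 9 genes was higher in PT than CTR (Il1r2), against 0.781% of all genes tested. Between PT and SCR, 3 of 9 were higher (Il1r2, Mmp9, Trem1), against 1.29%, and in SCR against CTR 0 of 9 passed, against 1.63% in either direction. The counts moved with single lungs. Between PT and CTR, 4 genes passed the threshold without CTR lung 5, where 2.47% of all genes did, and 2 without SCR lung 2, SCR lung 6 or PT lung 2, where 0.993% to 1.21% did. The count at an unadjusted p under 0.05 there was 4 without CTR lung 5 (11.4% of all genes), and 1 without CTR lung 2, CTR lung 4, PT lung 3, PT lung 5 or PT lung 6 (3.57% to 6.9%), against 7.66% of all genes with every lung. In PT against SCR, 6 genes passed the threshold of the study without SCR lung 6 (2.91% of all genes) and 5 without PT lung 2 (2.06%), and without SCR lung 6 the count at an unadjusted p under 0.05 was 8 (14.2%). In SCR against CTR, 2 genes passed the threshold of the study without SCR lung 6 (1.93%), while the count at an unadjusted p under 0.05 was 1 without CTR lung 2, CTR lung 5, SCR lung 1, SCR lung 2 or SCR lung 4 (15% to 21.7%) and 0 without CTR lung 4 (10.6%).

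Leaving out SCR lungs 1 to 3 moved the 9 genes and the whole table. The median of the 9 genes in PT against SCR was then 0.42. There, 1 gene passed the threshold of the study (1.02% of all genes in either direction, against 1.9% with every lung). Between PT and CTR, 2 genes passed this threshold (1.22%), and 5 had an unadjusted p under 0.05 (Il1r2, Mmp8, Mmp9, Fpr2, Retnlg). The share of all genes there was 12.9%, against 7.66% with every lung. After adjustment 0 of the 9 passed. The spread of a gene is estimated over all groups, so SCR lungs enter these p-values. Mmp9 was at 0.67 with every lung (unadjusted p = 0.193, edgeR) and 0.675 without SCR lungs 1 to 3 (0.0302). In the same order, Mmp8 had p-values of 0.113 and 0.0495, Retnlg of 0.0768 and 0.0281, and Il1r2 of 0.00144 and 0.00249. Between SCR and CTR, 0 of the 9 had an unadjusted p under 0.05, against 10.1% of all genes (18.8% with every lung).

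**Figure D2:**
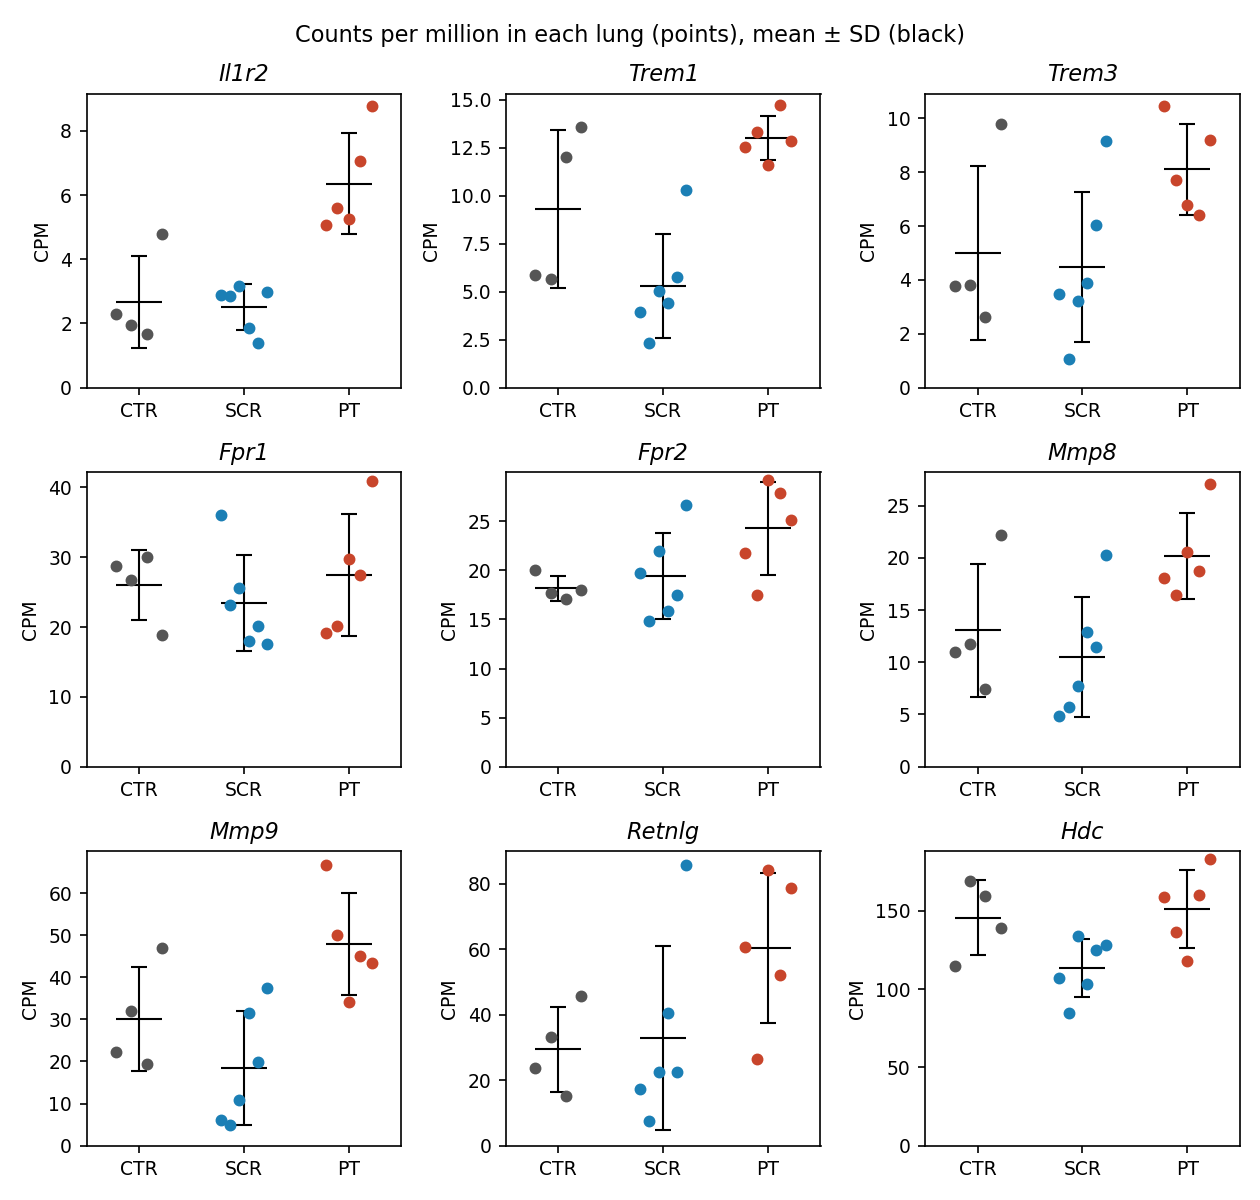
Level of each of the 9 genes in CPM (y axis, from 0) in every CTR, SCR and PT lung (points), with the mean and SD of each group in black. The PT points of Il1r2 lie above all CTR and SCR points, and those of Trem1 above all SCR points, whereas the groups overlap in the other genes.

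Il1r2 encodes the decoy receptor for interleukin 1, which binds the cytokine without signalling. Its level was 2.31, 1.94, 1.66 and 4.78 CPM in CTR lungs 1, 2, 4 and 5. In SCR it ranged from 1.39 to 3.15 CPM with a median of 2.86, and in PT lungs 1, 2, 3, 5 and 6 it was 5.07, 5.60, 5.27, 7.05 and 8.79 CPM. All 5 PT lungs were above all other lungs, and no other of the 9 genes separated PT from CTR (1.51% of all genes tested lay higher in PT with no overlap). Between PT and CTR the log2 fold change was 1.24 ± 0.33 (SE), with a 95% interval of 0.55 to 1.93, an unadjusted p of 0.00144 and an adjusted p of 0.494 (edgeR). It was 1.34 ± 0.29 in PT against SCR, with an adjusted p of 0.101, and 1.60 there without SCR lungs 1 to 3. Means of CTR (2.67 ± 1.43) and SCR (2.52 ± 0.716) differed by less than their spread. Il1r2 was the least abundant of the 9 genes, with 20 to 113 reads per lung, so counting error adds to its spread. DESeq2 gave Il1r2 an adjusted p of 0.00472 in PT against SCR, and edgeR's likelihood ratio test gave 0.00573.

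Trem1 and Trem3 encode neighbouring receptors of the immunoglobulin superfamily that amplify inflammatory signals through the adaptor DAP12. Trem1 was at 5.89, 5.67, 12.02 and 13.6 CPM in CTR lungs 1, 2, 4 and 5, from 2.34 to 10.3 CPM in SCR (median 4.72), and at 12.5, 13.3, 11.6, 14.7 and 12.8 CPM in PT lungs 1, 2, 3, 5 and 6. CTR lungs 1 and 2 were low and CTR lungs 4 and 5 at the level of PT, and the PT lungs had the narrowest spread of any of the 9 genes in PT (SD of 0.12 on the log2 scale). PT and SCR did not overlap, as for 0.895% of all genes tested that were higher in PT. Between PT and SCR the log2 fold change was 1.30 ± 0.31, with an unadjusted p of 0.000612 and an adjusted p of 0.129 (edgeR). It was -0.82 ± 0.32 in SCR against CTR, with an unadjusted p of 0.0216 and an adjusted p of 0.194, and 0.48 ± 0.34 in PT against CTR, with an interval of -0.23 to 1.19. Without SCR lungs 1 to 3, Trem1 was at -0.43 in SCR against CTR (unadjusted p = 0.223) and 0.92 in PT against SCR (unadjusted p = 0.0154). For PT against SCR, DESeq2 gave Trem1 an adjusted p of 0.0103, the likelihood ratio test 0.012, and edgeR's main test 0.0181 without SCR lung 6, the SCR lung with the highest Trem1. That fit called 0.607% of all genes.

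Trem3 was high in CTR lung 5 and SCR lung 6, as Trem1 was, but CTR lung 4 was its lowest CTR lung. It was at 3.76, 3.80, 2.62 and 9.79 CPM in CTR lungs 1, 2, 4 and 5, at 1.06 to 9.14 CPM in SCR, and at 10.4, 7.71, 6.78, 6.39 and 9.18 CPM in PT lungs 1, 2, 3, 5 and 6. The 1.06 CPM of SCR lung 2 rests on 19 reads. CTR lung 5 and SCR lung 6 were within the range of PT, and all other CTR and SCR lungs were below it. Trem3 had a log2 fold change of 0.69 ± 0.46 in PT against CTR (interval -0.28 to 1.66) and 0.86 ± 0.41 in PT against SCR (unadjusted p = 0.0536, adjusted p = 0.435, edgeR). In SCR against CTR it was -0.17 ± 0.44, and it was 0.40 without CTR lung 5. Without SCR lungs 1 to 3 it was 0.35 there and 0.34 in PT against SCR.

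Fpr1 and Fpr2 encode G protein-coupled receptors that guide neutrophils along gradients of formyl peptides, and Fpr2 also binds serum amyloid A and annexin A1. Fpr1 had the smallest difference between PT and SCR of the 9 genes. It was at 28.7, 26.7, 29.98 and 18.8 CPM in CTR lungs 1, 2, 4 and 5, at 17.6 to 36.04 CPM in SCR (median 21.7), and at 19.2, 20.2, 29.7, 27.4 and 40.9 CPM in PT lungs 1, 2, 3, 5 and 6. The groups overlapped widely, and CTR lung 5 and SCR lung 6, high in most of the 9 genes, were the lowest lungs of their groups here. Fpr1 had a log2 fold change of 0.08 ± 0.24 in PT against CTR, with an interval of -0.43 to 0.59, and 0.23 ± 0.22 in PT against SCR, with an interval of -0.23 to 0.70. These intervals include differences of either sign. Without SCR lungs 1 to 3, Fpr1 was at 0.55 in PT against SCR (unadjusted p = 0.0319) and -0.45 in SCR against CTR (unadjusted p = 0.079).

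Fpr2 was tight in the controls, with 20.03, 17.7, 17.0 and 18.0 CPM in CTR lungs 1, 2, 4 and 5. It ranged from 14.8 to 26.6 CPM in SCR and was at 21.7, 17.5, 29.3, 27.8 and 25.1 CPM in PT lungs 1, 2, 3, 5 and 6. All PT lungs except PT lung 2 were above every CTR lung, and SCR lungs lay on both sides of CTR. The log2 fold change of Fpr2 was 0.42 ± 0.18 in PT against CTR, with an unadjusted p of 0.0333 and an adjusted p of 0.616 (edgeR). It was 0.32 ± 0.16 in PT against SCR (unadjusted p = 0.0618) and 0.10 ± 0.17 in SCR against CTR.

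Mmp8 encodes neutrophil collagenase and Mmp9 gelatinase B, both released from neutrophil granules. Mmp8 was at 10.99, 11.7, 7.42 and 22.2 CPM in CTR lungs 1, 2, 4 and 5, at 4.82 to 20.2 CPM in SCR (median 9.58), and at 18.1, 16.4, 20.6, 18.7 and 27.1 CPM in PT lungs 1, 2, 3, 5 and 6. As with Trem3, CTR lung 5 and SCR lung 6 reached the PT range and the other lungs of their groups did not. Mmp8 had a log2 fold change of 0.62 ± 0.37 in PT against CTR (unadjusted p = 0.113) and 1.01 without CTR lung 5. It was 0.94 ± 0.33 in PT against SCR, with an unadjusted p of 0.012 and an adjusted p of 0.284 (edgeR), and 0.42 there without SCR lungs 1 to 3 (unadjusted p = 0.206).

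On the log2 scale, Mmp9 had the largest SD of the 9 genes in SCR (1.20). It was at 22.3, 31.9, 19.4 and 46.9 CPM in CTR lungs 1, 2, 4 and 5, and at 6.14, 5.02, 10.8, 31.6, 19.8 and 37.4 CPM in SCR lungs 1 to 6. In PT lungs 1, 2, 3, 5 and 6 it was at 66.8, 50.1, 34.01, 45.0 and 43.4 CPM. SCR lungs 1 to 3 were the 3 lowest lungs of all 15, and 4 of 5 PT lungs were above every SCR lung. The log2 fold change of Mmp9 was 1.37 ± 0.44 in PT against SCR, with an interval of 0.43 to 2.31, an unadjusted p of 0.00692 and an adjusted p of 0.235 (edgeR). In comparison with CTR it was 0.67 ± 0.49 in PT and -0.71 ± 0.46 in SCR, and the latter became 0.0026 when SCR lungs 1 to 3 were left out. In the same fit, Mmp9 was at 0.67 in PT against SCR (unadjusted p = 0.0466).

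Retnlg encodes a resistin-like secreted protein that rodent neutrophils make in abundance. Per length it was the most abundant of the 9 genes, with means of 48.4, 53.9 and 99.5 CPM per kb in CTR, SCR and PT, where Il1r2 was the lowest with 1.399, 1.32 and 3.33 CPM per kb. In CPM, Retnlg was at 23.7, 33.1, 15.2 and 45.7 in CTR lungs 1, 2, 4 and 5, and at 60.7, 26.6, 84.2, 52.2 and 78.7 in PT lungs 1, 2, 3, 5 and 6. The SCR lungs ran from 7.59 in SCR lung 2 to 85.8 in SCR lung 6, the lowest and the highest level of all 15 lungs. Retnlg had a log2 fold change of 1.04 ± 0.55 in PT against CTR, with an interval of -0.13 to 2.21 and an unadjusted p of 0.0768. It was 0.88 ± 0.48 in PT against SCR and 0.16 ± 0.52 in SCR against CTR, the last of which was -0.41 without SCR lung 6. Without SCR lungs 1 to 3 the values were 0.26 in PT against SCR and 0.79 in SCR against CTR.

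Hdc encodes histidine decarboxylase, which makes histamine. Its levels were 115.0, 168.8, 159.4 and 139.0 CPM in CTR lungs 1, 2, 4 and 5, ranged from 84.7 to 133.7 CPM in SCR (median 116), and were 159.0, 136.5, 118.1, 160.0 and 183.0 CPM in PT lungs 1, 2, 3, 5 and 6. CTR and PT covered nearly the same range, and 3 of 6 SCR lungs were below it. The log2 fold change of Hdc was -0.36 ± 0.15 in SCR against CTR, with an unadjusted p of 0.0347 and an adjusted p of 0.232, 0.41 ± 0.15 in PT against SCR, with an unadjusted p of 0.0119 and an adjusted p of 0.284 (edgeR), and 0.06 ± 0.16 in PT against CTR. Without SCR lungs 1 to 3, Hdc was at -0.26 in SCR against CTR (unadjusted p = 0.141) and 0.33 in PT against SCR (unadjusted p = 0.056).

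The lungs of a group differed in most of the 9 genes at once. CTR lung 5 was the highest CTR lung in 6 of the 9 genes and CTR lung 4 the lowest in 6. SCR lung 6 was the highest SCR lung in 6 and SCR lung 2 the lowest in 6. The SD of log2 CPM was smallest in PT for 7 of the 9 genes, with a median of 0.30, and largest in SCR for 7 of the 9, with a median of 0.68. Mmp8, Mmp9, Trem3 and Retnlg were lower in each of SCR lungs 1 to 3 than in each of SCR lungs 4 to 6, in contrast to Fpr1, which was at 23.2 to 36.04 CPM in SCR lungs 1 to 3 and at 17.6 to 20.2 CPM in SCR lungs 4 to 6. Both female SCR lungs are among SCR lungs 4 to 6. In male lungs alone, the median of the 9 genes in PT against SCR was 1.41, and 6 genes passed the threshold of the study. In that fit 4.61% of all genes passed it, against 1.9% with every lung. The male SCR lungs were SCR lungs 1, 2, 3 and 5, so this fit rests largely on SCR lungs 1 to 3. Without SCR lungs 1 to 3, the median in PT against SCR was 0.42. The part of sex in these values was not tested.

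**Figure D3:**
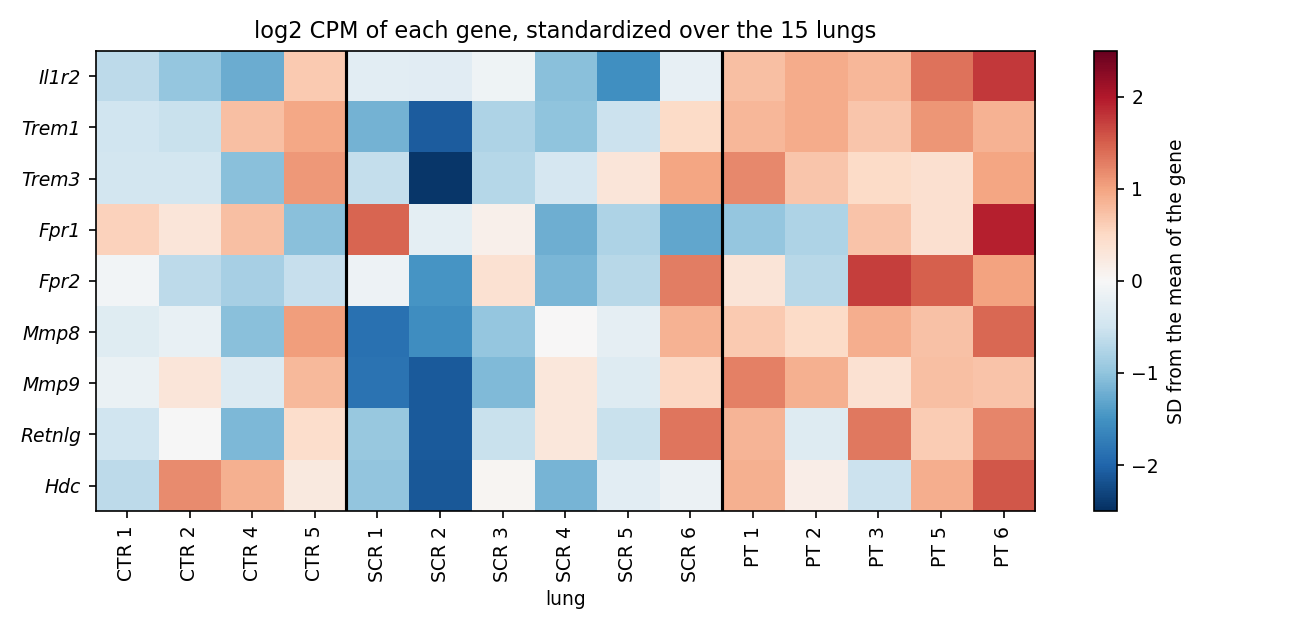
Log2 CPM of each of the 9 genes (rows) in each lung (columns, grouped as CTR, SCR and PT), shown as SD from the mean of the gene over the 15 lungs, with red above and blue below the mean. CTR lung 5 and SCR lung 6 resemble the PT lungs in most rows, SCR lung 2 is lowest, and the row of Fpr1 follows another order.

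Over the 15 lungs, the log2 CPM of 8 of the 9 genes correlated with the mean of the other members, at a Pearson r of 0.85 for Trem1, 0.84 for Mmp8 and Retnlg, 0.82 for Trem3, 0.77 for Mmp9, 0.68 for Fpr2, 0.66 for Il1r2 and 0.66 for Hdc. Fpr1 did not follow them (r = -0.004). These values describe lungs that share groups and, for SCR lungs 1 to 3, an unusual state. The 10 other genes whose log2 CPM was most like the mean of the standardized levels of the 9 were Il1rn, Cenph, Ccr1, Gm5150, Dfna5, Lpcat2, Clec4d, Sirpb1b, Cd83 and Fcgr3, with r from 0.88 to 0.94 over 15 lungs. Ccr1, a chemokine receptor of neutrophils and monocytes, was at 17.6 ± 4.81, 18.4 ± 7.50 and 40.3 ± 5.85 CPM in CTR, SCR and PT. Its log2 fold change was 1.20 in PT against CTR (unadjusted p = 0.000397, adjusted p = 0.494, edgeR), the smallest p of the 10. The largest was that of Dfna5 (log2 fold change 0.50, unadjusted p = 0.172). The 10 were picked for following the 9 genes over these same lungs, so their group differences are not separate support.

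The interleukin 1 system around Il1r2 has the ligands Il1a and Il1b, the signalling receptor Il1r1 with Il1rap, and the receptor antagonist Il1rn. Of 7 genes of this list, 6 were above 0 in PT against CTR (median 0.45). At an unadjusted p under 0.05, 1 was higher, against 2.93% of all genes, and 0 passed adjustment. Il1rn was at 18.7 ± 4.33, 16.8 ± 5.40 and 29.7 ± 3.84 CPM in CTR, SCR and PT, with a log2 fold change of 0.67 in PT against CTR (unadjusted p = 0.0102) and 0.82 in PT against SCR (unadjusted p = 0.000968, adjusted p = 0.142, edgeR). Il1b was at 133.1 ± 58.7, 56.6 ± 39.1 and 181.5 ± 45.8 CPM, lower in SCR than CTR by a log2 fold change of -1.24 (unadjusted p = 0.0132, adjusted p = 0.164). Il1r1 was at 67.1 ± 10.5, 59.3 ± 16.3 and 66.1 ± 3.11 CPM. Il1b had a log2 fold change of 1.682 in PT against SCR (unadjusted p = 0.00116, adjusted p = 0.152, edgeR). For Il1a it was 1.213 (unadjusted p = 0.00157, adjusted p = 0.161). Set against CTR, PT was at 0.4462 for Il1b (unadjusted p = 0.354) and 0.5019 for Il1a (unadjusted p = 0.174). The ligands, the decoy receptor and the antagonist were thus higher in PT on average. The means of the signalling receptor differed by less than their spread.

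Among metalloproteases and their TIMP inhibitors, Timp1, an inhibitor that binds Mmp9, rose in PT against SCR. It was at 5.39 ± 0.739, 4.59 ± 1.45 and 15.6 ± 6.17 CPM in CTR, SCR and PT, with a log2 fold change of 1.77 ± 0.27 and an adjusted p of 0.0233 in PT against SCR and of 1.53 ± 0.31 and 0.368 in PT against CTR (edgeR). Mmp2, a gelatinase of stromal cells, fell in SCR against CTR, from 104.8 ± 30.9 to 54.0 ± 5.52 CPM, with a log2 fold change of -0.96 and an adjusted p of 0.0437. Timp1 kept its call under 18 of 28 alternatives and lost it, among others, without SCR lung 2, 3 or 4, PT lung 1, 5 or 6 (adjusted p = 0.0645 to 0.0949) and without SCR lungs 1 to 3 (0.226). Mmp2 kept its call under 8 of 28 and lost it, among others, without 13 of the 15 lungs in turn (adjusted p up to 0.235) and without SCR lungs 1 to 3 (0.426), with log2 fold changes of -1.13 to -0.74 throughout. Mmp12, the macrophage elastase, was at 9.25 ± 2.51, 8.88 ± 2.07 and 24.1 ± 11.4 CPM, with a log2 fold change of 1.44 in PT against SCR (adjusted p = 0.0638). Of 11 tested genes of this list, 3 were higher (Timp1, Mmp12, Timp4) and 1 lower (Mmp2) in PT than CTR at an unadjusted p under 0.05. The median of the list was 0.35. At this p, 2.93% of all genes were higher and 7.66% differed in either direction.

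Tyrobp, which encodes DAP12, the adaptor behind Trem1 and Trem3, was at 127.4 ± 31.4, 133.4 ± 23.5 and 188.8 ± 13.03 CPM in CTR, SCR and PT. Its log2 fold change was 0.57 ± 0.17 in PT against CTR, with an unadjusted p of 0.00339 and an adjusted p of 0.494 (edgeR). All 8 genes of the Trem list were above 0 in PT against CTR (median 0.50). At an unadjusted p under 0.05, 3 of them (Tyrobp, Trem2, Hcst) were higher, against 2.93% of all genes, and 0 passed adjustment.

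Among ligands of the formyl peptide receptors, Saa3, a serum amyloid A protein made in the lung and by macrophages, rose in PT against SCR. It was at 4.74 ± 3.42, 4.75 ± 3.30 and 44.9 ± 19.9 CPM in CTR, SCR and PT, with a log2 fold change of 3.24 ± 0.46 and an adjusted p of 0.0219 in PT against SCR and of 3.23 ± 0.53 and 0.139 in PT against CTR (edgeR). The call held under 20 of 28 alternatives and was lost without SCR lung 1, 2, 3 or 4 or PT lung 1, 5 or 6 (adjusted p = 0.0503 to 0.0828) and without SCR lungs 1 to 3 (0.344). Anxa1 was at 396.7 ± 51.0, 450.3 ± 96.8 and 446.5 ± 113.4 CPM, which differ by less than their spread. Camp, the cathelicidin of granulocyte precursors, was at 6.48 ± 1.25, 1.54 ± 1.46 and 4.21 ± 1.69 CPM. Of 10 genes on this list 5 were tested, and Fpr3, Fpr-rs3, Fpr-rs4, Fpr-rs6 and Fpr-rs7 had 0 counts in all lungs.

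Of the resistin-like genes, Retn, the resistin gene, was at 0.965 ± 0.650, 1.13 ± 0.827 and 2.74 ± 1.64 CPM in CTR, SCR and PT, with a log2 fold change of 1.52 in PT against CTR (unadjusted p = 0.0258, adjusted p = 0.603, edgeR). Retnla, which lung epithelium and macrophages make, was at 33.1 ± 18.6, 49.6 ± 15.2 and 45.6 ± 21.4 CPM. Beside Hdc, the histamine-degrading enzyme Hnmt was at 19.6 ± 6.33, 33.6 ± 10.1 and 23.6 ± 7.51 CPM, higher in SCR than CTR at an unadjusted p of 0.0126 (log2 fold change 0.78, adjusted p = 0.163). The histamine receptor gene Hrh2 was at 1.47 ± 1.04, 1.23 ± 0.858 and 2.38 ± 0.495 CPM. Of 5 tested histamine genes, 0 passed adjustment in any comparison.

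Other genes of mature neutrophils were likewise highest in PT by their medians. All 25 genes of this list were tested. In PT against CTR, 22 were above 0 (median 0.71), where 51.6% of all genes were. At an unadjusted p under 0.05, 13 were higher, against 2.93% of all genes, and 1 (G0s2) was lower. In either direction, 7.66% of all genes reached this p. After adjustment 0 of the list passed, as did 0% of all genes. Against SCR, all 25 were above 0 in PT (median 0.89), where 48.2% of all genes were. There, 17 were higher at an unadjusted p under 0.05, against 6.19% of all genes. After adjustment 0 of the 25 passed, against 0.0378%. In SCR against CTR the median was -0.07. Those with the smallest p in PT against CTR were Asprv1, Wfdc21 and Clec4d, with log2 fold changes of 1.503, 1.33 and 1.14. Clec4d, a myeloid lectin receptor, was at 14.2 ± 7.59, 14.3 ± 5.67 and 31.3 ± 2.78 CPM in CTR, SCR and PT. Ly6g, which defines mouse neutrophils, was low throughout, with 1.10 ± 0.493, 0.559 ± 0.643 and 1.67 ± 0.313 CPM. The summed CPM of the 25 genes was 1016 to 2099 in CTR, 605 to 2382 in SCR and 1988 to 2785 in PT, with CTR lung 5 and SCR lung 6 at the top of their groups, as in the 9 genes.

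Of 12 granulocyte precursor genes, which bone marrow cells use before neutrophils mature, 7 were tested. Mpo, myeloperoxidase, fell in SCR against CTR, from 2.13 ± 1.25 to 0.155 ± 0.177 CPM (log2 fold change -3.77, adjusted p = 0.0416, edgeR), and was at 0.387 ± 0.225 CPM in PT, on 182 reads in all. It kept this call under 7 of 26 alternatives, with an adjusted p of up to 0.124 when single lungs were left out and 0.426 without SCR lungs 1 to 3. The log2 fold changes of Mpo ran from -4.39 to -3.37 in the fits on counts. They were -2.12 with limma on log2(FPKM + 0.1) and -0.58 on log2(FPKM + 1). Of the 7 tested, 6 were below 0 in SCR against CTR (median -0.94), 3 of them (Mpo, Ngp, Camp) at an unadjusted p under 0.05, against 10.2% of all genes. Ngp was at -2.14 and Camp at -2.07 there. In PT against CTR, 4 of the 7 were above 0 (median 0.11). In PT against SCR all 7 were above 0 (median 1.05). There, 4 (Prtn3, Ngp, Camp, Lcn2) had an unadjusted p under 0.05, against 6.19% of all genes, but 0 passed adjustment (edgeR). Of these 4, Ngp (-0.70) and Camp (-0.62) were below 0 in PT against CTR, and Prtn3 (0.11) and Lcn2 (0.85) above. Lcn2, lipocalin 2, which inflamed epithelium also makes, was at 81.0 ± 11.7, 89.4 ± 30.4 and 145.7 ± 46.1 CPM.

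**Figure D4:**
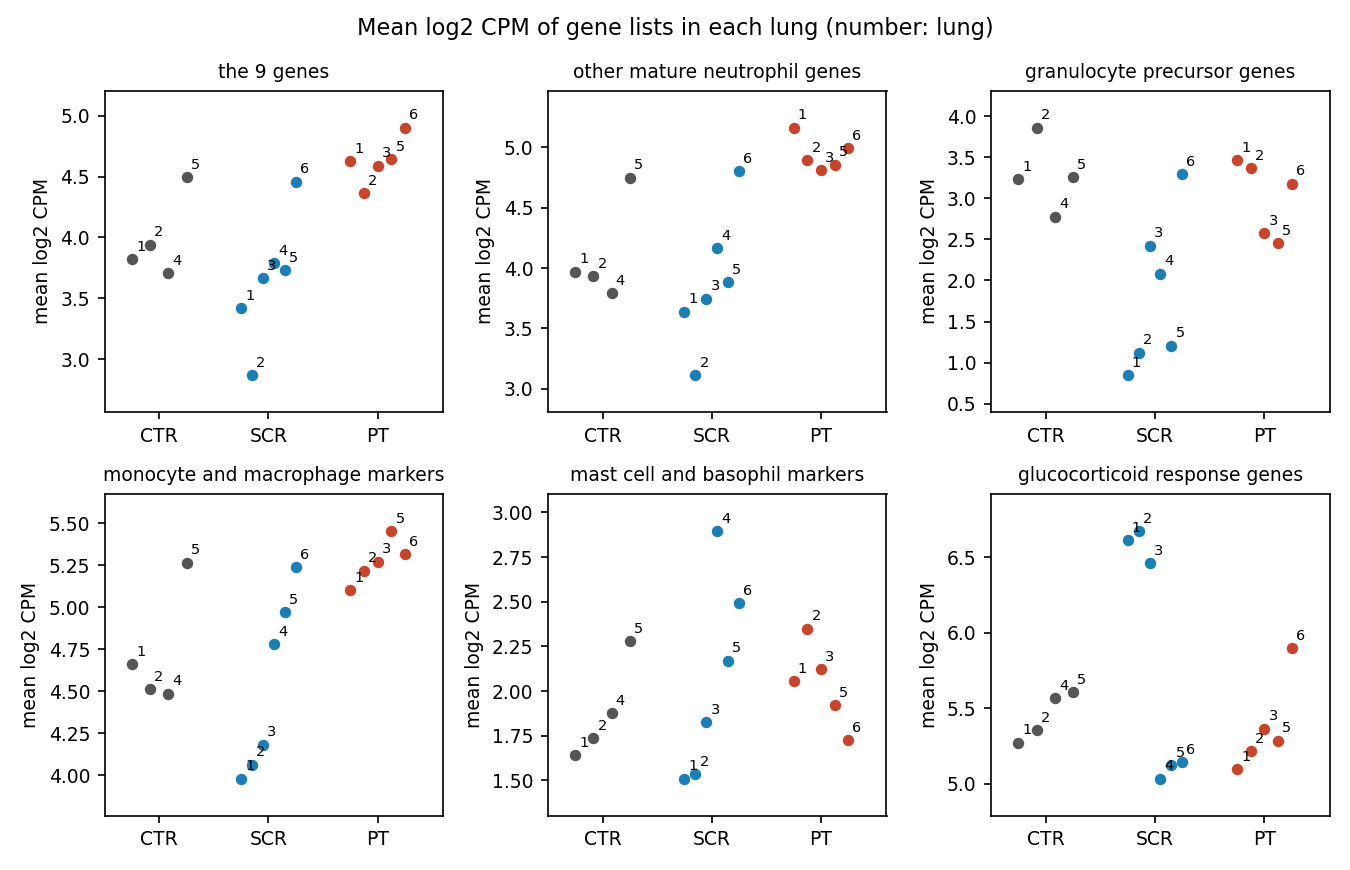
Mean log2 CPM (y axis) of the 9 genes and of 5 lists of marker genes in every CTR, SCR and PT lung (points, with the lung number beside each). The 9 genes, the other mature neutrophil genes and the monocyte and macrophage markers place CTR lung 5 and SCR lung 6 beside the PT lungs, and SCR lungs 1 to 3 stand apart in the glucocorticoid response genes.

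Markers of other cells that use some of the 9 genes moved with the groups in part. Of 12 monocyte and macrophage markers, 10 were above 0 in PT against CTR (median 0.51). There, 3 (Ccr2, Fcgr1, Marco) were higher at an unadjusted p under 0.05, against 2.93% of all genes. In PT against SCR all 12 were above 0 (median 0.59), 6 at an unadjusted p under 0.05, against 6.19% of all genes, and 0 passed adjustment in either. The summed CPM of these markers was 478 to 716 in CTR, 318 to 838 in SCR and 673 to 816 in PT, again highest in CTR lung 5 and SCR lung 6 within their groups. The part of monocytes and macrophages in the levels of Fpr1, Fpr2, Trem1, Trem3 and Mmp9 was not tested. Of 12 mast cell and basophil markers 7 were tested, and their summed CPM was 250 to 312 in CTR, 182 to 318 in SCR and 201 to 278 in PT. Most of it came from Kit and Gata2, which other lung cells use. The mast cell tryptase Tpsab1 had 10 reads in all 15 lungs, and Cpa3 was at 0.575 ± 0.150, 0.769 ± 0.599 and 0.602 ± 0.235 CPM. Cma1 was at 3.89 ± 1.34, 3.33 ± 1.17 and 5.74 ± 1.60 CPM in CTR, SCR and PT. Its log2 fold change was 0.56 in PT against CTR (unadjusted p = 0.0893) and 0.78 in PT against SCR (unadjusted p = 0.0135, edgeR). In PT against SCR, 5 of the 7 tested markers were below 0 (median -0.34), with Gata2 at -0.48 (unadjusted p = 0.0262, edgeR). In SCR against CTR, 5 of the 7 were above 0 (median 0.43), against 51.2% of all genes. Kit was at -0.44 there (unadjusted p = 0.028). The part of mast cells and basophils in the level of Hdc was not tested. Of 6 tested eosinophil markers 0 passed adjustment, and red cell transcripts had a median log2 fold change of 0.11 between PT and CTR and 0.14 between PT and SCR. PT lung 6 had a summed CPM of red cell transcripts of 12190, against 3247 to 5572 in the other PT lungs, and it was the highest PT lung in 4 of the 9 genes (Il1r2, Mmp8, Fpr1, Hdc). Without it, the log2 fold change of Il1r2 was 1.09 in PT against CTR and 1.19 when PT was set against SCR. In the same order, Mmp8 was at 0.49 and 0.80, Fpr1 at -0.11 and 0.04, and Hdc at -0.02 and 0.33. The part of red cell content in these values was not tested.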

How the data were processed

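RNA-seq of 15 mouse lungs was analysed, 1 library per lung. According to the methods of the study and the submitters' processing notes, the authors trimmed single-end reads with cutadapt 1.15, removed contaminants with Bowtie2 2.3.3.1, aligned with STAR 2.5.2b to GRCm38, handled alignments with SAMtools 1.5 and counted with featureCounts 1.5.3. The deposited counts are whole reads per Ensembl gene, not normalized, with the gene length and GC percent as given by the authors. The deposited FPKM, for 16137 genes, were normalized by the authors within and between samples with EDASeq and were used only as an alternative. No other per-sample columns were left out.

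Counts were tested with edgeR 4.0.16 (R 4.3.3), with TMM normalization, edgeR's filter for low counts (15870 genes kept) and a robust quasi-likelihood fit of the 3 groups in all 15 lungs. P-values were Benjamini-Hochberg adjusted over all tested genes, and a gene was called at an adjusted p under 0.05. The fit was tested on simulated data. CPM are counts scaled by TMM, and log2 CPM used a prior count of 2. The 9 genes, the marker and partner lists and the tests were chosen with earlier results of these data known. Named beside the 9 genes were the list genes past the adjusted test, the 3 genes of a list with the smallest p in PT against CTR, direct partners of a member and the 10 genes most like the members. Fpr3 and its relatives, Sftpc, Scgb1a1, Cdh5, Pecam1, Ngp, Ly6g, G0s2, Tpsab1, Prtn3 and Cpa3 were named after their values were seen. Gene positions were matched by Ensembl ID to GENCODE M21, and promoter sequences came from RefSeq. At 12767431 reads or more per lung, counting error is largest for Il1r2 over all lungs together, and for Trem3 in SCR lung 2 (19 reads).

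Alternatives were other normalizations and filters, DESeq2 1.42.0, edgeR's likelihood ratio test, limma 3.58.1 on the FPKM, a GC correction, the replicate number as a block, fits of only the groups compared, fits without the female lungs, without SCR lungs 1 to 3 and without each lung in turn. Summaries and figures used Python 3.11.15, pandas 2.3.3 and matplotlib 3.10.9.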

Additional observations from a re-analysis of the deposited data

How the results depend on the processing

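The 9 genes kept their direction in PT against SCR under all alternatives run, and in PT against CTR except for Fpr1 and Hdc, both near 0. Counts of the 9 genes past a threshold were less stable, and the cause was not tested. Genes with few reads, such as Il1r2 (20 to 113 per lung) and Trem3 (19 to 209 per lung), carry more counting error. Il1r2 stayed at 0.85 to 1.69 in PT against CTR under all alternatives.

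In brackets below are the shares of all genes under the same setting, in either direction. Between PT and SCR, 2 genes passed the adjusted test with DESeq2 (1.46%) and 2 with the likelihood ratio test (183 of 15870 genes), against 0 in the main test. The threshold of the study was passed there by 5 genes with the replicate block (2.6%) and 6 with limma on log2(FPKM + 0.1) (1.78%). It was passed by 6 in male lungs alone (4.61%) and 1 without SCR lungs 1 to 3 (1.02%). An unadjusted p under 0.05 was reached by 8 genes with limma at either pseudocount, 1 (14%) or 0.1 (14.2%). The median log2 fold change was 1.41 in male lungs alone and 0.42 without SCR lungs 1 to 3. Between PT and CTR, the threshold of the study was passed by 2 genes in a fit of only the groups compared (1.06%). It was passed by 0 with limma on log2(FPKM + 1) (0.384%) and 2 without SCR lungs 1 to 3 (1.22%). An unadjusted p under 0.05 was reached there by 5 genes in a fit of only the groups compared (11%) and 5 without SCR lungs 1 to 3 (12.9%). It was reached by 1 each with the replicate block (3.86%), the GC correction (10.4%), limma at pseudocount 1 (9.08%) or 0.1 (8.87%) and male lungs alone (3.7%). In SCR against CTR, 0 genes had an unadjusted p under 0.05 in a fit of only the groups compared (15.3%) and 0 without SCR lungs 1 to 3 (10.1%). With limma 1 did at either pseudocount (17.6% at each), and 2 passed the threshold of the study in male lungs alone (3.63%).

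Leaving out each lung gave 0 to 1 genes past the adjusted test in PT against SCR, where 1 to 96 of all genes passed. The threshold of the study was passed there by 3 to 6 (1.42% to 2.91% of all genes), and 5 to 8 had an unadjusted p under 0.05 (7.97% to 14.2%). In the same order, PT against CTR had 1 to 4 (0.655% to 2.47%) and 1 to 4 (3.57% to 11.4%). SCR against CTR had 0 to 2 (1.16% to 2.54%) and 0 to 3 (10.6% to 21.7%). In both comparisons with CTR, 0 of the 9 passed the adjusted test.

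Of the log2 fold changes whose sign reversed, none had passed the adjusted test. In SCR against CTR, Fpr2 (0.10 in the main test) was -0.0732 with the replicate block, -0.0382 with the GC correction, -0.0751 with limma on log2(FPKM + 1) and -0.082 on log2(FPKM + 0.1). Retnlg (0.16) was -0.53 with the replicate block, -0.10 with limma on log2(FPKM + 1), -0.10 on log2(FPKM + 0.1) and -0.75 in male lungs alone, where Fpr1 was 0.0185. Without SCR lungs 1 to 3, Mmp8 was 0.21, Mmp9 0.0026 and Trem3 0.35. In PT against CTR, the replicate block gave Fpr1 -0.0243 and Hdc -0.0071. Leaving out each lung gave ranges across 0 in SCR against CTR for Il1r2 (-0.28 to 0.35), Mmp8 (-0.61 to 0.0653), Trem3 (-0.51 to 0.40), Fpr2 (-0.0155 to 0.16) and Retnlg (-0.41 to 0.45), and in PT against CTR for Fpr1 (-0.11 to 0.18) and Hdc (-0.0418 to 0.13).

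The replicate numbers in the labels showed no pairing of the lungs, though 12 pairs are too few to exclude a partial one. Of 12 pairs of lungs with the same number, 4 had a correlation of their deviations from the group means over 0.1, with a median of -0.08. Of 62 pairs with different numbers, 23 did, with a median of 0.004. The block is therefore given only as an alternative.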
